A study of Mus musculus with 8 samples.

Results

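Chemokines are small secreted proteins that draw leukocytes along a gradient, and their receptors are G protein-coupled receptors on the cells they attract. CC chemokines carry adjacent cysteines near the start of the mature protein and CXC chemokines carry 1 residue between them. In the myeloid lineage, Ccl3 and Ccl4 (MIP-1 alpha and beta), Ccl6 and Ccl9 are made by granulocyte and macrophage precursors, Ccr2 brings monocytes out of the marrow, Cxcr2 brings neutrophils out, and Cxcr4 holds blood cells in the marrow through its ligand Cxcl12. The group described here holds 10 genes chosen by name, 5 ligands (Ccl3, Ccl4, Ccl6, Ccl9, Cxcl2) and 5 receptors (Ccr1, Ccr2, Cxcr2, Cxcr4, Ccrl2), of 17097 genes that the platform annotation pairs with a probe set of exactly 1 symbol. A probe set is a group of short array probes for 1 transcript. Probe sets with 1 symbol were found for 9 of the 10 genes, 14 probe sets in all, and the level of Cxcr4 is not analysed here. The brightest probe set on average over the 8 arrays stood for each gene, and 8 of the 9 genes passed the filter on low values, among 12250 genes tested. Cxcl2 did not pass it.

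RNA was measured on 8 Affymetrix mouse arrays, 4 with the label Trib1 hi and 4 with Trib1 null, each of an acute myeloid leukaemia (AML) cell line. The labels give the Trib1 hi cells Hoxa9 together with Trib1, and the Trib1 null cells Hoxa9 alone. Hoxa9 encodes a homeodomain protein that sustains leukaemic growth, and the pseudokinase Trib1 leads to loss of C/EBP alpha, a regulator of granulocyte maturation. Both kinds of cell are described as leukaemia that arose in mice without either Trib1 copy, grown untreated in IMDM with 10% fetal bovine serum and IL-3 at 5 ng/ml. No source used here gives the number of lines or clones, the age of the mice, or the vectors and promoters, so differences between lines and those due to Trib1 cannot be told apart. Whether arrays of a group come from separate cultures is not stated either, so p-values measure only the spread between these arrays, which may be technical. The fit shares part of that spread over all tested genes, so a p-value does not rest on the gene's own spread alone.

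The level of Trib1 went against the labels, at signals where arrays differ for other reasons. The probe set that stands for it read 5.92 to 122 on Trib1 hi arrays and 206 to 304 on Trib1 null arrays, and Hoxa9 read 10.0 to 391 and 969 to 1075. Whether the probes cover deleted or introduced sequence was not established, so they do not test the labels, and every direction below is that of the labels. A background control (GC25) read 379 on Trib1 hi 3 against 11.4 to 15.1 on the other 3 arrays labelled Trib1 hi, and 149 to 335 on the arrays labelled Trib1 null, with the highest of these on Trib1 null 1. These same arrays had the lowest 95th percentiles of signal, 3733 on Trib1 hi 3 and 3972 on Trib1 null 1, against 4265 to 4967 on the other 6. Folds were therefore taken only between signals of at least 500, with lower signals set to 500 and the fold then written "at least". Another limit is an added control, dap, which cells do not make: its 4 probe sets over 500 on all arrays were 1.41-fold to 1.61-fold lower in the arrays labelled Trib1 hi, all without overlap, whereas the 8 such probe sets of the bioD and cre controls overlapped. Decreases of that size and smaller cannot be told apart from the difference in this control. Those of Ccl3 and Ccr2 were larger than in dap, and the part of the control's difference in them was not tested. The 3 such probe sets of the bioC control overlapped, with log2 differences from -0.34 to 0.20. Of 12 further control probe sets, 1 did not overlap, MURINE_b1, which was 3.00-fold lower in the arrays labelled Trib1 hi.

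Of the 8 genes tested, 6 were called lower on arrays labelled Trib1 hi, with 0 higher (limma, Benjamini-Hochberg adjusted p under 0.05), beside 19.7% of all tested genes called lower and 11.1% called higher. At an unadjusted p under 0.05 the members gave the same counts, 6 and 0, beside 2956 lower and 1619 higher of all 12250 tested genes. All 8 lay above the filter in both groups. Their median log2 difference was -1.22, against 0.04 over all tested genes. The called genes were the ligands Ccl3 and Ccl4 and the receptors Ccr1, Ccr2, Cxcr2 and Ccrl2, whereas Ccl6 and Ccl9 did not pass the threshold in either direction. Groups did not overlap for 5 genes, all lower in the arrays labelled Trib1 hi, where 15.8% of all tested genes were lower without overlap. Among 4465 genes over 500 on all 8 arrays, 25.8% were called lower and 25.9% higher. Ccl3, Ccl6, Ccl9, Ccr1 and Ccr2 are in that class, and 3 of these 5 were called lower. Under other settings these background shares moved, so each count of members above belongs to its own setting. With quantile normalization 27.4% of genes were called higher and 27.4% lower. Equal medians gave 1.32% and 17.6%, a floor of 500 gave 21.8% and 29.7%, and a floor of 1000 gave 27.2% and 30.3%. Without a shared variance the shares were 9% and 11.3%, and with array weights 23% and 40%. The replicate block gave 10.5% and 19.2%, and leaving out Trib1 hi 3 and Trib1 null 1 gave 22% and 31.9%. The other 3 called genes, Ccl4, Cxcr2 and Ccrl2, lay below 500 on some or all arrays of both groups.

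**Figure D1:**
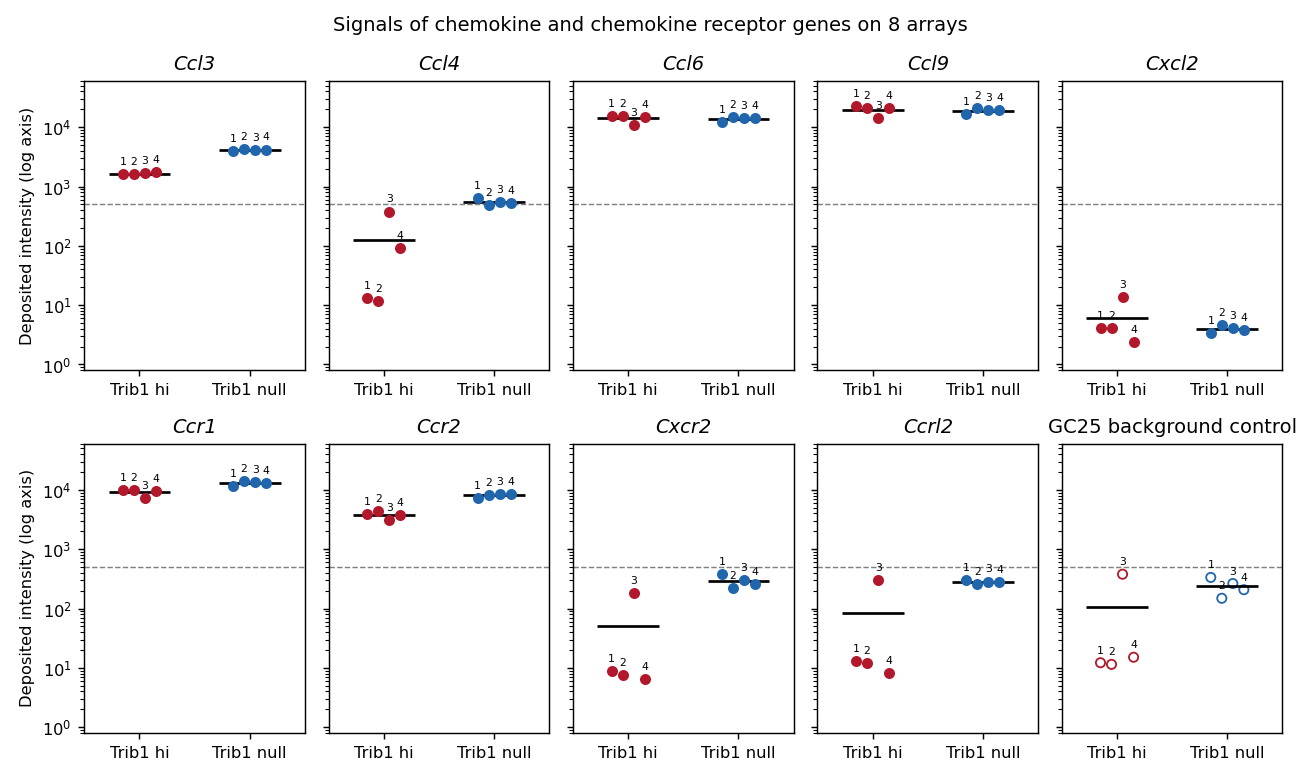
Deposited intensity (log axis) of 9 chemokine and receptor genes, and of the GC25 background control, on the 4 Trib1 hi arrays and the 4 Trib1 null arrays. Points are arrays with their replicate numbers, horizontal bars are group means, and the dashed line marks 500. Ccl3, Ccr1 and Ccr2 lie above the dashed line and lower under the Trib1 hi label, Ccl6 and Ccl9 overlap, and the dim genes Ccl4, Cxcr2 and Ccrl2 read highest of their group on Trib1 hi 3, as the control does.

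Ccl3, a ligand of Ccr1 that attracts monocytes and other leukocytes, had the clearest difference among the ligands. It read 1595, 1614, 1666 and 1737 on arrays labelled Trib1 hi, against 3974, 4299, 4198 and 4206 on those labelled Trib1 null. The groups lay far apart, and within each the arrays differed little. Means were 1653 ± 63.8 and 4169 ± 138 (SD, n = 4 each), 2.52-fold lower in the arrays labelled Trib1 hi (log2 difference -1.33, SE 0.09, adjusted p = 8.80e-14). The adjusted p was 1.6e-05 without a variance shared between genes and 0.000276 without a variance trend. The 250 bases before its start, shown because the gene changed most among the bright members, are printed 5′ to 3′ on the minus strand of GRCm38.p6 at chr11:83649379-83649628 and come from RefSeq.
Ccl3: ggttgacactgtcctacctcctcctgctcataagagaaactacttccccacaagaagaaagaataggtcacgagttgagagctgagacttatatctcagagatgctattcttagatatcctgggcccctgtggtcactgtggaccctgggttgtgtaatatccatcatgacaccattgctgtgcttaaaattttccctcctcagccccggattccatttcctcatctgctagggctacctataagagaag
None (0) of the 3 motifs searched is present in this window, so it holds no capitals.

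Ccl4, a CC chemokine that attracts leukocytes, is the next gene to Ccl3 on chromosome 11. It read 13.4, 11.9, 379 and 90.3 on arrays labelled Trib1 hi, against 642, 493, 545 and 532 on those labelled Trib1 null. The groups did not overlap, but only 3 of the 8 arrays reached 500, all labelled Trib1 null, so no fold is given. The fitted log2 difference was -3.36 (SE 0.80, adjusted p = 0.00117). That call was lost with a floor of 500 (log2 difference -0.14, adjusted p = 0.145), and the difference was -1.43 after quantile normalization (adjusted p = 2.42e-07). On Trib1 hi 3 the control read 379, above its 149 to 335 on the arrays labelled Trib1 null, while Ccl4 on that array lay below its lowest Trib1 null value. The part of background in the size of the difference was not tested.

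Ccl6 and Ccl9, CC chemokines of mouse myeloid cells that also act through Ccr1, did not pass the threshold. Ccl6 read 15688, 15299, 11014 and 15071 on arrays labelled Trib1 hi, against 12241, 14893, 14148 and 14274 on those labelled Trib1 null. Ccl9 read 22417, 21224, 14205 and 21403, against 16636, 20667, 19434 and 19470.1. Both genes overlapped between the groups and were lowest on Trib1 hi 3 and Trib1 null 1, the arrays with the lowest upper percentiles. The log2 difference was 0.03 for Ccl6 (95% interval -0.25 to 0.30, adjusted p = 0.923) and 0.04 for Ccl9 (-0.28 to 0.36, adjusted p = 0.911). The other probe set of Ccl9 gave 0.09 (-0.16 to 0.34). With Trib1 hi 3 and Trib1 null 1 both left out, a choice made after seeing the data, Ccl6 was 0.09 (adjusted p = 0.0506) and Ccl9 0.13 (adjusted p = 0.0207), and with array weights both were called higher, at 0.12 and 0.17 (adjusted p = 0.00222 and 0.000528).

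Ccl9 and Ccl6 lie side by side with Ccl3 and Ccl4 on chromosome 11, in the order Ccl5, Ccl9, Ccl6, Ccl3, Ccl4 among protein-coding genes of the gene table of GRCm38.p6. The pair at one end of the run was called lower and the pair in its middle did not pass the threshold. Ccl5, beyond Ccl9, stayed near the bottom of the scale, at 29.6 ± 47.9 and 22.3 ± 35.1 (adjusted p = 0.935). Among 36 pairs of member promoters, the windows of Ccl6 and Ccl9 gave the highest local alignment score, 15, where the other 35 pairs scored 8 to 14. The stretch behind that score is short and is shown because it joins the neighbours whose groups overlapped on the arrays. It covers 17 bases, 16 of them identical, at chr11:83593130-83593146 for Ccl6 and chr11:83578638-83578654 for Ccl9 (RefSeq, GRCm38.p6, minus strand, 5′ to 3′), and capitals mark the identical bases.
Ccl6: CTTgGCCCTCCACTTCC
Ccl9: CTTtGCCCTCCACTTCC

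Cxcl2 (MIP-2), a neutrophil attractant that macrophages make on inflammatory stimulation and a ligand of Cxcr2, read 4.05, 4.06, 13.5 and 2.39 on arrays labelled Trib1 hi, against 3.33, 4.68, 4.14 and 3.81 on those labelled Trib1 null. All 8 values lay at the bottom of the scale, the groups overlapped, and the gene was not tested. Its neighbour Cxcl1, of like function, read 3.38 ± 0.70 and 2.86 ± 0.59. The promoter of Cxcl2 is printed because it holds both of the NF-kB matches found on the coding strand of any member, although the gene was not measured above the filter. The 250 bases before the start lie on the plus strand of GRCm38.p6 at chr5:90903649-90903898 (RefSeq, 5′ to 3′), and capitals mark matches to the NF-kB motif (GGG, any 2 bases, TTTCC).
Cxcl2: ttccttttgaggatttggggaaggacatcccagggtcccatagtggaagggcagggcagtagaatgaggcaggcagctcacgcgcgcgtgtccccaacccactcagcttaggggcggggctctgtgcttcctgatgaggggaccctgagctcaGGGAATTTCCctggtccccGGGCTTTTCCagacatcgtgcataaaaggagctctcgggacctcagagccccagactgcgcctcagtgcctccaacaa
The matches lie 97 to 88 and 78 to 69 bases before the start.

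Across the members, windows were found for 9 of the 10 genes, all but Ccl4, and 11 windows in all were searched on both strands for the NF-kB motif (GGG, any 2 bases, TTTCC), TTGCNNAA (C/EBP) and TTCNNNGAA (STAT). NF-kB letters were present in 2 of the 11, those of Cxcl2 and Ccl9, against 1.41% of 32851 windows of the same length. C/EBP letters were present in 0 of 11, against 9.56% of all windows, and STAT letters in 0 of 11, against 7.02%. The single match of Ccl9 lies on the opposite strand, 35 to 26 bases before the start. Of the 11 windows, 3 are of Ccrl2, and 2 of these share most of their bases, so the windows are not separate. A match is a run of letters and not a shown site, and sites outside these windows were not searched.

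Ccr1, the receptor shared by Ccl3, Ccl6 and Ccl9, read 9977, 10107, 7287 and 9480.3 on arrays labelled Trib1 hi, against 11727, 14345, 13426 and 13138 on those labelled Trib1 null. Every array labelled Trib1 hi lay below every array labelled Trib1 null. Means were 9213 ± 1312 and 13159 ± 1085, 1.44-fold lower (log2 difference -0.52, SE 0.12, adjusted p = 0.00105). The other Ccr1 probe set gave a larger difference, with 781, 886, 1003 and 814 against 1904, 2329, 1853 and 2001, 2.32-fold lower. Its 95% interval, -1.48 to -0.95 on the log2 scale, did not overlap that of the brighter probe set, -0.76 to -0.29, so the size for Ccr1 depends on the probe set while the direction does not. The brighter probe set's fold lies within the 1.41 to 1.61 of the dap control and the other's lies above it; the part of that difference in Ccr1 was not tested.

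Ccr2, the receptor for Ccl2 that monocytes need to leave the marrow, read 3978, 4389, 3163 and 3747 on arrays labelled Trib1 hi, against 7339, 8207, 8525 and 8604 on those labelled Trib1 null. The groups did not overlap. Means were 3819 ± 512 and 8169 ± 579, 2.15-fold lower (log2 difference -1.10, SE 0.10, adjusted p = 2.08e-10). Ccr2 has 4 probe sets, and all 4 had lower means in the arrays labelled Trib1 hi. The next brightest read 287 ± 222 and 1464 ± 82.9, at least 2.78-fold lower (adjusted p = 1.46e-07 over all probe sets, of which 15% were called lower and 8.17% higher). The 2 dimmest lay below 500 on all 8 arrays, overlapped between the groups and did not pass the threshold (adjusted p = 0.0671 and 0.296). The ligands of Ccr2 on the array, Ccl2, Ccl7 and Ccl12, had means of 13.5 or less in both groups and were not tested.

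Ccr1 and Ccr2 lie near each other on chromosome 9, with Ccr1l1 and Ccr3 between them. Ccr1l1 read 33.3 ± 54.0 and 15.1 ± 19.1 (adjusted p = 0.872), and Ccr3, the eotaxin receptor of eosinophils, read 2.01 ± 0.73 and 2.05 ± 0.23. The receptors on either side of that stretch were thus called lower under the Trib1 hi label, while both receptors between them read near the bottom of the scale in both groups.

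**Figure D2:**
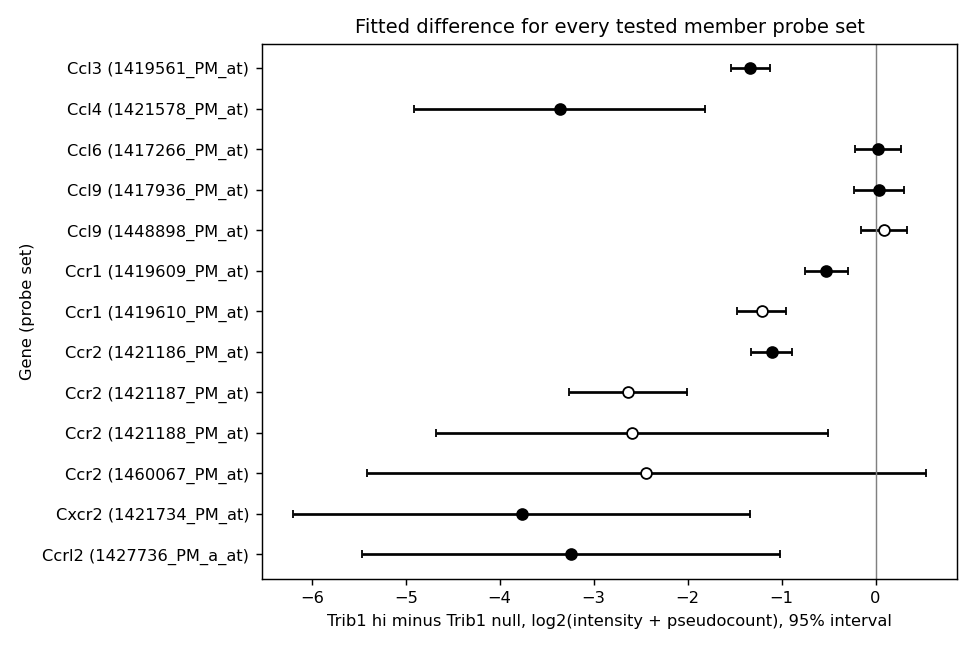
Fitted difference between arrays labelled Trib1 hi and Trib1 null on the log2(intensity + pseudocount) scale for the 13 tested probe sets of the members, from the fit over all probe sets. Points are estimates and bars 95% intervals; filled points are the probe sets that represent their gene and open points the others. Probe sets of Ccl6 and Ccl9 lie at 0 and those of the other genes lie below it, with intervals that widen for dim probe sets.

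Cxcr2, the receptor through which neutrophils follow Cxcl1 and Cxcl2, read 8.81, 7.43, 180 and 6.47 on arrays labelled Trib1 hi, against 377, 223, 298 and 258 on those labelled Trib1 null. The groups did not overlap, but all 8 values lay below 500 and no fold is given. Within the arrays labelled Trib1 null, Cxcr2 ran in the same order as the GC25 control, highest on Trib1 null 1 and lowest on Trib1 null 2. On Trib1 hi 3, where that control read higher than on any array labelled Trib1 null, Cxcr2 lay below all 4 of them; the part of background in its difference was not tested. The fitted log2 difference was -3.77 (SE 1.33, adjusted p = 0.0288), and -2.06 after quantile normalization (adjusted p = 1.37e-07). The call was lost when any 1 array other than Trib1 hi 3 was omitted (adjusted p = 0.0522 to 0.127).

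Ccrl2, an atypical receptor that holds the attractant chemerin at the cell surface, read 13.0, 12.3, 302 and 8.28 on arrays labelled Trib1 hi, against 299, 257, 285 and 280 on those labelled Trib1 null. Trib1 hi 3 lay above all 4 arrays labelled Trib1 null and the other 3 far below, so the groups overlapped. The fitted log2 difference was -3.24 (SE 1.21, adjusted p = 0.0394), and the call was lost when any 1 array other than Trib1 hi 3 was omitted (adjusted p = 0.0723 to 0.141). After quantile normalization it was -0.72 (adjusted p = 0.0132). On Trib1 hi 3 both Ccrl2 and the background control read above 300, and on the other 3 arrays of that group both read below 16; the part of background was not tested. Ltf, the lactoferrin gene next to Ccrl2 on chromosome 9, read 18.2 ± 25.4 and 13.9 ± 18.9 (adjusted p = 0.922).

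Ratios within an array set each bright gene against another on the same array. The ratios to Ccl6 were chosen after the values were seen, and only their change between groups is read. The ratio of Ccr1 to Ccl6 was 0.636, 0.661, 0.662 and 0.629 on arrays labelled Trib1 hi, against 0.958, 0.963, 0.949 and 0.92 on those labelled Trib1 null. Trib1 hi 3 was the highest of its group in that ratio, close to Trib1 hi 2, and also for Ccr2 to Ccl6 (0.2872, against 0.2869 on Trib1 hi 2). It stood further apart for Ccl3 to Ccl6, highest at 0.151 against 0.102 to 0.115 on the other 3. For Ccl9 to Ccl6 it was the lowest of its group, at 1.29 against 1.39 to 1.43. The ratio of Ccr2 to Ccl6 averaged 0.269 ± 0.021 and 0.589 ± 0.025 (SD, n = 4 each), and that of Ccl3 to Ccl6 averaged 0.118 ± 0.023 and 0.301 ± 0.016. These 3 ratios did not overlap between groups, and that of Ccl9 to Ccl6, 1.38 ± 0.06 and 1.37 ± 0.01, did. Since Ccl6 and the other genes were picked with their values known, no test is given.

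**Figure D3:**
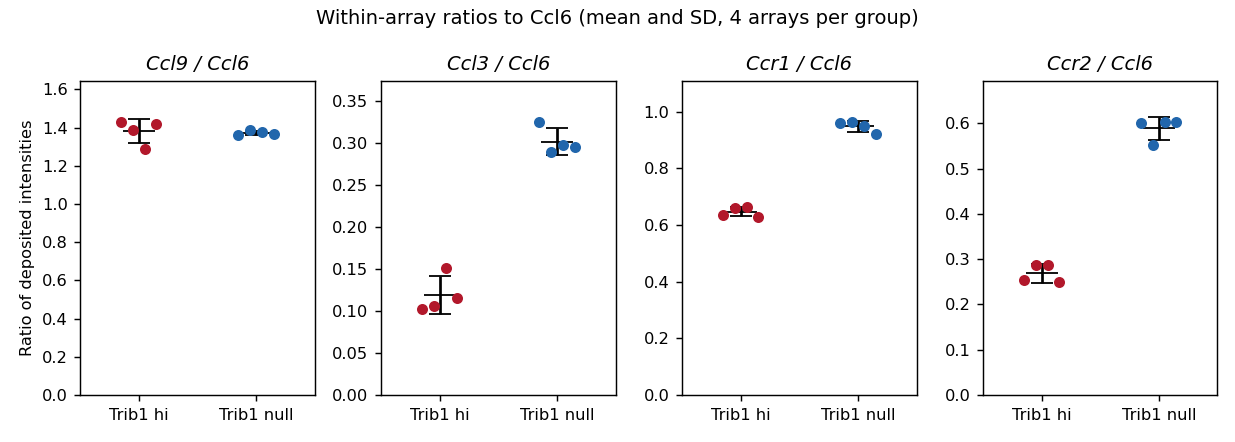
Ratio of the deposited intensity of Ccl9, Ccl3, Ccr1 and Ccr2 to that of Ccl6 on the same array, for the 4 Trib1 hi arrays and the 4 Trib1 null arrays, on linear axes from 0. Points are arrays, and bars give the mean and SD. The ratio of Ccl9 overlaps between the groups (means 1.38 and 1.37), and the other 3 ratios are lower on every array labelled Trib1 hi.

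Genes with the pattern most like each bright member were sought over all tested genes by Pearson correlation over the 8 arrays, as a description. For Ccl3, Ccr1 and Ccr2 it mostly reflects the difference between 2 groups. Nearest to Ccl3 were Dgat1 (r = 0.9998), Rab32 (0.9996) and Slfn4 (0.9994). Dgat1, which makes triglyceride, had a mean of 1151 in the arrays labelled Trib1 hi and 5621 in those labelled Trib1 null. Nearest to Ccr2 were Wipf1 (0.998), a partner of the actin regulator WASP, Sgpp1 (0.997) and Scp2 (0.997). Nearest to Ccr1 were Mpp1 (0.999), Gm2a (0.997) and Ube2r2 (0.997). Ccl6 was closest to Coro7, Rpl36al and Pabpc1 (0.997 each), and Ccl9 to Myl10 (0.998), Fau (0.997) and Ccl6 itself (0.996). The genes nearest to Ccl6 and Ccl9 differed little between groups, with log2 differences from 0.02 (Fau) to 0.05 (Pabpc1).

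Over the wider family, few genes were measurable. Of 38 chemokine ligands listed, 35 had a probe set, 26 were tested and 4 exceeded 500 on any array, namely Ccl3, Ccl4, Ccl6 and Ccl9. Ccl3 and Ccl4 were the 2 called lower, and 0 were called higher, also at an unadjusted p under 0.05. Of all tested genes 19.7% were called lower and 11.1% higher, and at the unadjusted threshold 2956 and 1619 of 12250. After quantile normalization 4 ligands were called higher and 4 lower, beside 27.4% of all tested genes in each direction. Of 24 chemokine receptors listed, 19 had a probe set, 9 were tested and only Ccr1 and Ccr2 exceeded 500. Among these 9, 4 were called lower, Ccr1, Ccr2, Cxcr2 and Ccrl2, and 0 higher, also at an unadjusted p under 0.05. These counts stand beside 19.7% and 11.1% of all tested genes at the adjusted threshold. At the unadjusted one, 2956 of all 12250 tested genes were lower and 1619 higher. Median log2 differences were 0.24 for the ligands tested and 0.11 for the receptors, and most genes of both lists lay below 500. Cxcl12, the ligand of Cxcr4 that marrow stroma makes, read 25.9 ± 43.5 and 3.50 ± 0.27 (adjusted p = 0.410).

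Other attractant receptors of leukocytes were mostly dim as well. Of 15 listed, 11 had a probe set and 8 were tested, with 0 called in either direction, also at an unadjusted p under 0.05. Of all tested genes 19.7% were called lower and 11.1% higher, and at the unadjusted threshold 2956 and 1619 of 12250. After quantile normalization 2 of these receptors were called lower and 1 higher, beside 27.4% of all tested genes in each direction. Ltb4r1, the leukotriene B4 receptor, was the only one over 500 and was picked for mention after its values were seen. It read 1532 ± 69.1 in the arrays labelled Trib1 hi and 1533 ± 85.0 in those labelled Trib1 null, a log2 difference of 0.00. C3ar1, a complement receptor, read 92.3 ± 162 and 112 ± 85.5 (adjusted p = 0.622), and Ptgdr2, a prostaglandin D2 receptor, read 18.4 ± 29.7 and 3.20 ± 0.35 (adjusted p = 0.433).

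Genes that carry the signal inside the cell were better measured. Of 41 genes of chemokine receptor signalling listed, 37 had a probe set and 34 were tested; 15 were called lower and 3 higher under the Trib1 hi label, beside 19.7% and 11.1% of all tested genes. Their median log2 difference was -0.24. Equal medians left 8 lower and 1 higher. The largest fitted decreases were in dim genes. Grk5, a kinase that switches off G protein-coupled receptors, read 33.7 ± 57.1 and 329 ± 25.5 (adjusted p = 0.0132), and Plcb2, a phospholipase, read 79.6 ± 137 and 347 ± 45.1 (adjusted p = 0.0147). Ptk2b, a tyrosine kinase, was at least 1.21-fold lower (98.2 ± 157 and 609 ± 59.5, adjusted p = 0.00036), a bound below the folds of the dap control. Prex1, a Rac activator, was at least 1.65-fold lower (159 ± 209 and 827 ± 60.2, adjusted p = 7.72e-05).

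Brighter genes of this pathway were picked for mention after their values were seen. Arrb2, the beta-arrestin that takes up activated chemokine receptors, read 965 ± 89.5 in the arrays labelled Trib1 hi and 1919 ± 63.9 in those labelled Trib1 null, 2.00-fold lower (adjusted p = 6.63e-09). Dock2, a Rac activator that leukocytes need for migration, was 1.61-fold lower, Wipf1 1.67-fold, and the receptor kinase Grk6 1.35-fold. The fold of Grk6 lies below those of the dap control, and that of Dock2 near their upper end. Vav1, another Rac activator, was at least 2.26-fold lower, and Rgs2, which speeds the shut-off of G proteins, at least 3.50-fold. The 3 genes called higher were Pik3cd, a phosphoinositide 3-kinase subunit (1.99-fold), Gng2, a G protein gamma subunit (at least 1.30-fold), and Rgs18, a G protein regulator of blood cells (1.35-fold, 11521 ± 1550 and 8516 ± 665). Gnai2, the main inhibitory G protein of leukocytes, was 1.26-fold lower, also below the dap folds, with overlap between the groups (adjusted p = 0.0328). Its close relative Gnai3 read 10176 ± 1793 and 10647 ± 636 (adjusted p = 0.717).

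**Figure D4:**
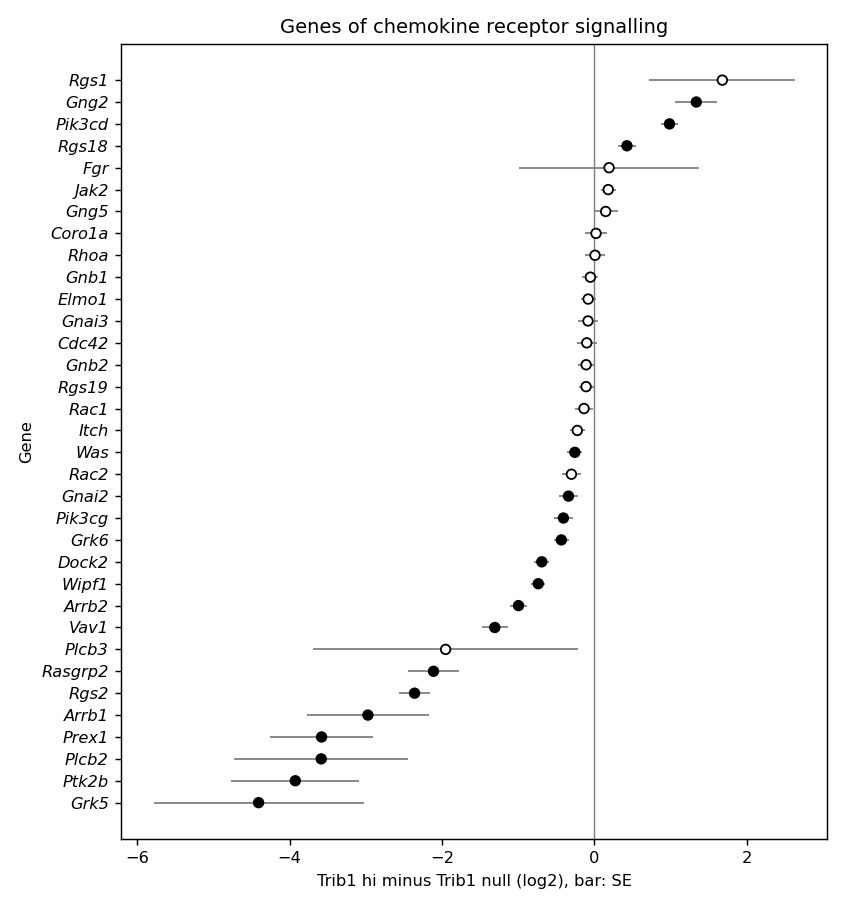
Log2 difference between arrays labelled Trib1 hi and Trib1 null for the 34 tested genes of chemokine receptor signalling, ordered by size, with SE as bars. Filled points passed an adjusted p of 0.05 and open points did not. The 15 filled points left of 0 and the 3 to its right are the genes called lower and higher, and the 5 largest decreases, from Arrb1 to Grk5, have wide bars.

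Of 16 genes listed that act around Cxcr4 in holding cells in the marrow, 12 were tested, with 3 called lower and 2 higher, near the 19.7% and 11.1% of all tested genes. Vcam1, an adhesion molecule, read 30.7 ± 53.0 in the arrays labelled Trib1 hi and 1116 ± 81.3 in those labelled Trib1 null, at least 2.23-fold lower (adjusted p = 2.97e-06). Its partner Itga4, an integrin chain, was 1.43-fold lower (1010 ± 86.3 and 1439 ± 47.2, adjusted p = 0.000602), and Csf3r, the G-CSF receptor, at least 1.65-fold lower. The fold of Itga4 lies within the 1.41 to 1.61 of the dap control. Elane, the neutrophil elastase that can cleave Cxcl12, was 5.58-fold higher (4452 ± 653 and 802 ± 170.2, adjusted p = 4.17e-17). The other gene called higher, named after its values were seen, was Mif, a cytokine that binds Cxcr4 (1.35-fold, adjusted p = 0.0147), with overlapping groups.

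Of 26 inflammatory genes listed that are often induced along with Ccl3, Ccl4 and Cxcl2, 21 were tested, with 9 called lower and 1 higher, beside 19.7% and 11.1% of all tested genes. Their median log2 difference was -0.85, against 0.04 over all tested genes. That median is the value of Rel, which lay below 500 on all 8 arrays and was not called (adjusted p = 0.787). Nfkbie, an inhibitor of NF-kB that is itself an NF-kB target, read 69.9 ± 120 in the arrays labelled Trib1 hi and 1245 ± 71.4 in those labelled Trib1 null, at least 2.49-fold lower (adjusted p = 4.79e-07). Nfkbiz, a relative, was at least 1.24-fold lower, and the phosphatases Dusp1 and Dusp2 at least 3.98-fold and 1.62-fold. Chosen after their values were seen, Il1rn, the natural antagonist of interleukin 1, was 3.67-fold lower (1441 ± 54.9 and 5282 ± 167), Nfkbia 1.52-fold and Ier3 1.76-fold. The fold of Nfkbia lies within those of the dap control, and the bound for Nfkbiz below them. Tnf read 41.5 ± 69.9 and 104 ± 55.3 (adjusted p = 0.365) and Il1b 32.2 ± 55.5 and 23.0 ± 33.9 (adjusted p = 0.986). Il6, the 1 called higher, lay below 500 on all 8 arrays (155 ± 213 and 1.44 ± 0.28, adjusted p = 0.0258), and its call was lost without any 1 of the arrays labelled Trib1 null.

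Markers of cell types moved beside the members. In bulk RNA, fewer cells of a type and less RNA per cell cannot be told apart. The summed signal of 9 neutrophil markers was 25386 to 36405 on arrays labelled Trib1 hi, against 98944 to 122699 in those labelled Trib1 null. Of the 9 tested, 5 were called lower and 0 higher, beside 19.7% and 11.1% of all tested genes. The sum was carried by S100a8, S100a9, Ngp and Lcn2, while Ltf, Camp, Mmp8 and Mmp9 lay below 500 in both groups and were not called. The summed signal of 9 monocyte and macrophage markers overlapped, at 7839 to 9510.1 and 8073 to 8800.3, with 1 higher and 1 lower of 6 tested. The macrophage growth factor receptor Csf1r read 33.5 ± 56.5 and 23.9 ± 24.5. The sum of 10 mast cell and basophil markers was 23555 to 32049 against 7329 to 7675, with 3 higher and 1 lower of 8 tested. It was carried by Cpa3 (23607 ± 4093 and 1385 ± 22.4), while the basophil protease Mcpt8 was 1.74-fold lower (2872 ± 219.8 and 4980.4 ± 321). For eosinophils the sum was 3746 to 4649 against 245 to 486 over 5 markers, carried by Siglecf, while Epx read 17.5 ± 25.9 and 2.85 ± 0.30. Sums for 7 T and NK cell markers were 2602 to 2909 against 25.6 to 208, carried by Nkg7, which myeloid precursors also express, with Cd3e at 34.3 ± 56.3 and 39.5 ± 61.8. The 4 B cell markers summed to 14.7 to 205 against 11.4 to 63.5. The 8 stromal and endothelial markers summed to 1643 to 1759 against 2137 to 2372, carried by Pecam1, which leukocytes also express, with Col1a1 at 2.56 ± 1.22 and 1.63 ± 0.27. The part of cell type makeup in the lower Ccl3, Ccr1 and Ccr2 was not tested.

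**Figure D5:**
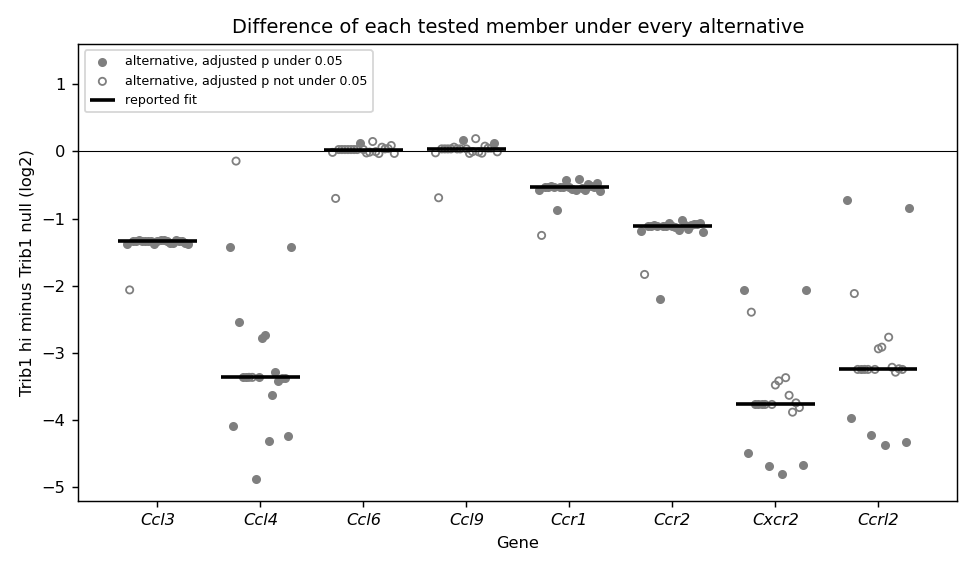
Log2 difference between arrays labelled Trib1 hi and Trib1 null for the 8 tested members in the reported fit (bar) and under each processing alternative (points; filled where adjusted p was under 0.05, open where it was not). Ccl3, Ccr1 and Ccr2 are filled and below 0 under all alternatives but equal medians, Ccl6 and Ccl9 lie near 0 except under equal medians (-0.70 and -0.69), and the dim genes Ccl4, Cxcr2 and Ccrl2 spread widely below 0.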

How the data were processed

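Total RNA was hybridised to Affymetrix mouse arrays, labelled from 100 ng of RNA per the labels' protocols. The authors deposited linear intensities of 45141 probe sets on 8 arrays, made with MAS5, per the submitters' processing notes; no source used here gives the version or parameters. The mean trimmed by 2% at each end was 500.1 to 500.2 on every array. Detection calls were not used here, and the number of arrays, 4 per group, limits precision. Per the labels' titles, arrays fall into Trib1 hi and Trib1 null.

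Before testing, a pseudocount of 2.71 was added to every intensity and log2 was taken. The pseudocount was set at the 25th percentile over the deposited table. Folds were not taken on this scale. Fitted log2 differences of dim genes moved with the scaling. For Ccl4, Cxcr2 and Ccrl2 they were -3.36, -3.77 and -3.24. Quantile normalization gave -1.43, -2.06 and -0.72, and equal medians gave -4.09, -4.49 and -3.97. Genes with a mean over 3.01 (the 40th percentile of probe sets) were kept. limma 3.58.1 in R 4.3.3 (lmFit, eBayes with a trend, two-sided, Benjamini-Hochberg over all 12250 genes, threshold 0.05) gave every adjusted p. A trial of it on simulated data drew noise separately for each gene, so it does not cover shifts that genes of an array share. The annotation gave 28898 probe sets 1 symbol and 551 several; 104 were controls. Promoter windows were matched by symbol and aligned with Biopython 1.88, and the limit of 500 came from earlier work on these data. The members, gene lists and tests were chosen with earlier results of these data known. All 10 members are named; from each list, the 4 called genes with the largest log2 difference (or 2 as values), neighbours in the gene table, and the 3 most correlated genes of bright members. Alternatives changed scaling, floor, pseudocount, filter, probe set choice, variance model and arrays.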

Additional observations from a re-analysis of the deposited data

Results flagged for a closer look

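Trib1 hi 3 stood far from the other 3 arrays of its group for 5 of the members, out of 18 groups of 4 arrays examined. By chance about 1 in 20 separate groups would be singled out, but genes read on the same arrays are not separate. It was the lowest of its group for Ccl6 (11014, a gap to the next array of 0.868 of the group's range) and Ccl9 (14205, gap 0.855). It was the highest for the dim genes Cxcl2 (13.5, gap 0.850), Cxcr2 (180, gap 0.987) and Ccrl2 (302, gap 0.984). The same array had the highest background control, 379, and the lowest 95th percentile, 3733. No array labelled Trib1 null stood apart in this way (0 groups).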

How the results depend on the processing

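Ccl3, Ccr1 and Ccr2 were called lower in 20 of 21 alternatives each. Only equal medians ended these calls, at -2.06 (adjusted p = 0.118), -1.25 (0.531) and -1.83 (0.249) on the log2 scale; that scaling moved the median of all genes to -0.69, against 0.04 in the reported fit. Ccl4 was called in 17 of 20 and lost its call with a floor of 500, without a variance trend (adjusted p = 0.0711) and without a shared variance (0.0954). Cxcr2 was called in 9 of 19 and Ccrl2 in 7 of 19. Values all at the floor gave no result for Cxcr2 and Ccrl2 at 500 or 1000, nor for Ccl4 at 1000. Below 500 the background control itself ran from 11.4 to 379 across arrays.

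The number of members called lower, 6, was 3 with equal medians, with either floor and without a shared variance, and 4 to 6 with 1 array left out; the number called higher, 0, was 2 with array weights and 1 without Trib1 hi 3 and Trib1 null 1, a setting added after seeing the data. Ccl6 and Ccl9, called in neither direction, turned negative with quantile normalization (-0.014 and -0.020), with equal medians (-0.70 and -0.69), and with quantile normalization without those 2 arrays (-0.029 and -0.0055). With 1 array left out they ran from -0.031 to 0.15 and from -0.029 to 0.19; the cause was not tested.

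Genes called higher and lower over the whole table, 1363 and 2409, were 3352 and 3355 with quantile normalization, 2820 and 4900 with array weights, 2698 and 3903 without both high-background arrays, and 711 and 1285 with the mean of probe sets. Equal medians gave 162 higher, and quantile normalization without both arrays 3185 higher. Lower calls were 1420 with a floor of 1000, where fewer genes were tested, 1274 without a trend and 1379 without a shared variance. Pseudocount 32 gave 1398 higher and 2274 lower. No filter, where more genes were tested, gave 1209 higher and 1862 lower. With 1 array left out, 1153 to 2103 were higher and 1964 to 3768 lower, the highest of each without Trib1 hi 3.

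Chemokine ligands called higher were 4 with quantile normalization, array weights and without both arrays, 3 with quantile normalization without both, and 0 to 1 with 1 array left out. Those called lower were 4 with quantile normalization (with or without both arrays), equal medians and without both arrays, 5 with array weights, and 1 with either floor, without a trend and without a shared variance. Chemokine receptors called higher were 1 with quantile normalization, array weights and without both arrays. Those called lower were 2 with equal medians, pseudocount 32, no shared variance and the replicate block, and 2 to 4 with 1 array left out. With either floor only genes over it on some array were tested. Among receptors these were Ccr1 and Ccr2, and both were called lower. Other attractant receptors had 1 higher with quantile normalization (with or without both arrays), and 2 lower with it, equal medians and array weights, and 1 lower without both arrays. Signalling genes called higher were 6 with quantile normalization (with or without both arrays) and without both arrays, 8 with array weights, 1 with equal medians and with the mean of probe sets, and 3 to 6 with 1 array left out. Those called lower were 24 with quantile normalization, 23 with it without both arrays, 8 with equal medians, and 9 with a floor of 1000, without a trend and without a shared variance. Genes around Cxcr4 called higher were 0 with equal medians, 1 with the mean of probe sets, without a trend and without a shared variance, and 1 to 3 with 1 array left out; those lower were 7 with quantile normalization with or without both arrays. Inflammatory genes called higher were 3 with quantile normalization (with or without both arrays), 2 with equal medians and without both arrays, 4 with array weights, 0 with pseudocount 32, no filter, no shared variance and the replicate block, and 0 to 2 with 1 array left out; those lower were 15 with quantile normalization and 14 with array weights.

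Same-numbered arrays did not deviate together (correlations of -0.51, 0.49, -0.29 and 0.37), and 1 of 4 arrays labelled Trib1 hi correlated best with its own number, so the numbers were not taken as pairs. With the replicate block, 4 members were called lower, against 6, and 1284 and 2346 genes were called over the whole table; Cxcr2 (adjusted p = 0.0530) and Ccrl2 (0.0601) lost their calls.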
